A study of Mus musculus with 8 samples.

Results

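The comparison described here sets mouse small intestinal organoids given 6 Gy of X-rays against untreated organoids, both collected at day 4. Its members were chosen by their labels alone: 2 irradiated and 2 control libraries, 4 of the 8 in the series. The other 4 libraries are the same groups at day 7. All groups share the strain C57BL/6 and are homozygous (Tg/Tg) for Rosa26-rtTA and for Col1A1-TetO-OSKM, an allele pair through which doxycycline can switch on reprogramming factors. No label reports induction of that allele for these samples. The epithelial cells were isolated from mice aged 4 to 8 weeks and grown in IntestiCult medium, so the cultures hold epithelium without the surrounding tissue. The start of the day count is not stated in the labels, nor is it stated that the libraries of a group came from separate cultures or animals, and p-values then measure only the spread between these libraries, which may be technical.

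Ribosomes are built from rRNA and a set of large and small subunit proteins, and the supply of amino acids to translation is watched by the transcription factor ATF4, which drives genes for serine synthesis, mitochondrial folate enzymes, amino acid carriers and tRNA charging. Folate carries 1-carbon units from serine to purine, thymidylate and methionine synthesis. Low oxygen stabilises the HIF factors, which drive glycolysis, glucose uptake and angiogenic genes. In the small intestine, absorptive enterocytes carry the apical peptide, amino acid, sugar and lipid transporters, whereas dividing crypt cells have a high demand for ribosomes and nucleotides.

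Total expected counts were 12074700 and 16054300 in control replicates 1 and 2 and 9681080 and 11313900 in irradiated replicates 1 and 2, so that 1 count stood for 0.0574 to 0.102 CPM (counts scaled to a common library total, with the TMM scaling of edgeR). Mitochondrial genes took 16.2% to 20.7% of the control counts, 20.3% in irradiated 1 and 27.6% in irradiated 2. Replicates lay apart: 330 of the genes tested differed at least 2-fold between the controls and 495 between the irradiated libraries, and the second principal component, with 12.4% of the variance, separated irradiated 1 from irradiated 2. The 12 epithelial and intestinal identity genes summed to 4723 and 4776 CPM in the controls and to 7489 and 6535 CPM after irradiation. Of these, 5 rose and 2 fell, with a median log2 fold change of 0.02. Among those that rose, Krt20 was at 43.8 and 31.6 CPM against 263 and 334 CPM, and Vil1 at 346 and 287 CPM against 754 and 910 CPM. The 2 that fell were Epcam and Cdx2. Epcam, an epithelial adhesion protein, was at 999.8 and 965 CPM against 697 and 636 CPM (call lost without either control, at log2 fold changes of -0.548 and -0.596). Cdx2, an intestinal transcription factor, was at 114 and 139.7 CPM against 58.3 and 65.1 CPM. Of 12 immune markers, 3 were at 0 in all 4 libraries (Cd4, Cd8a and Adgre1) and the whole list summed to 4.26 and 5.92 CPM against 10.3 and 12.1 CPM, where Csf1r (2 against 32 counts) and Lyz2 (5 against 40) were called higher, passed the filter through the irradiated libraries and lost their call without control 2 (adjusted p = 0.0559 and 0.0635). Mesenchymal markers summed to 16.3 to 20.9 CPM, endothelial markers to 3.52 to 5.92 CPM and neural and glial markers to 2.87 to 7.35 CPM over the 4 libraries, and the 4 haemoglobin genes listed were at 0. Of the endothelial markers, Tek (4 against 34 counts) was called higher and Egfl7 (80 against 11) lower. The glial marker S100b (3 against 45) was called higher. Tek lost its call without either control and Egfl7 without control 2. TMM scaling balances library composition, and a log2 fold change is irradiated less control from edgeR's quasi-likelihood fit of the 4 libraries. It is given with a standard error (SE) and Benjamini-Hochberg adjusted p where a result turns on it. The SE was worked back from the test, as the size of the log2 fold change over the square root of the F statistic.

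At day 4 the irradiated organoids held less RNA of the cytosolic ribosome, of several serine and mitochondrial folate enzymes, of ATF4 targets and of several histone variants and chaperones. They held more RNA of transporters such as Slc15a1 and Slc6a19, of several gluconeogenic enzymes and of the nuclear RNA Neat1 and Malat1. Of 13826 genes tested, 3228 (23.3%) were called at an adjusted p under 0.05, with 1878 higher (13.6%) and 1350 lower (9.76%), and 1087 and 354 of these changed at least 2-fold. All 3228 had libraries that did not overlap between groups, as did 9119 genes (66%) of all those tested. Leaving out control 1 left 1838 calls and leaving out control 2 left 1284, against 3198 without irradiated 1 and 2705 without irradiated 2. The share of calls that were higher, 58.2%, depended on scaling: with library totals alone it was 43.5%, where the median of all genes moved to -0.17 on the log2 scale. In bulk RNA, fewer cells of a type and less RNA per cell cannot be told apart.

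**Figure D1:**
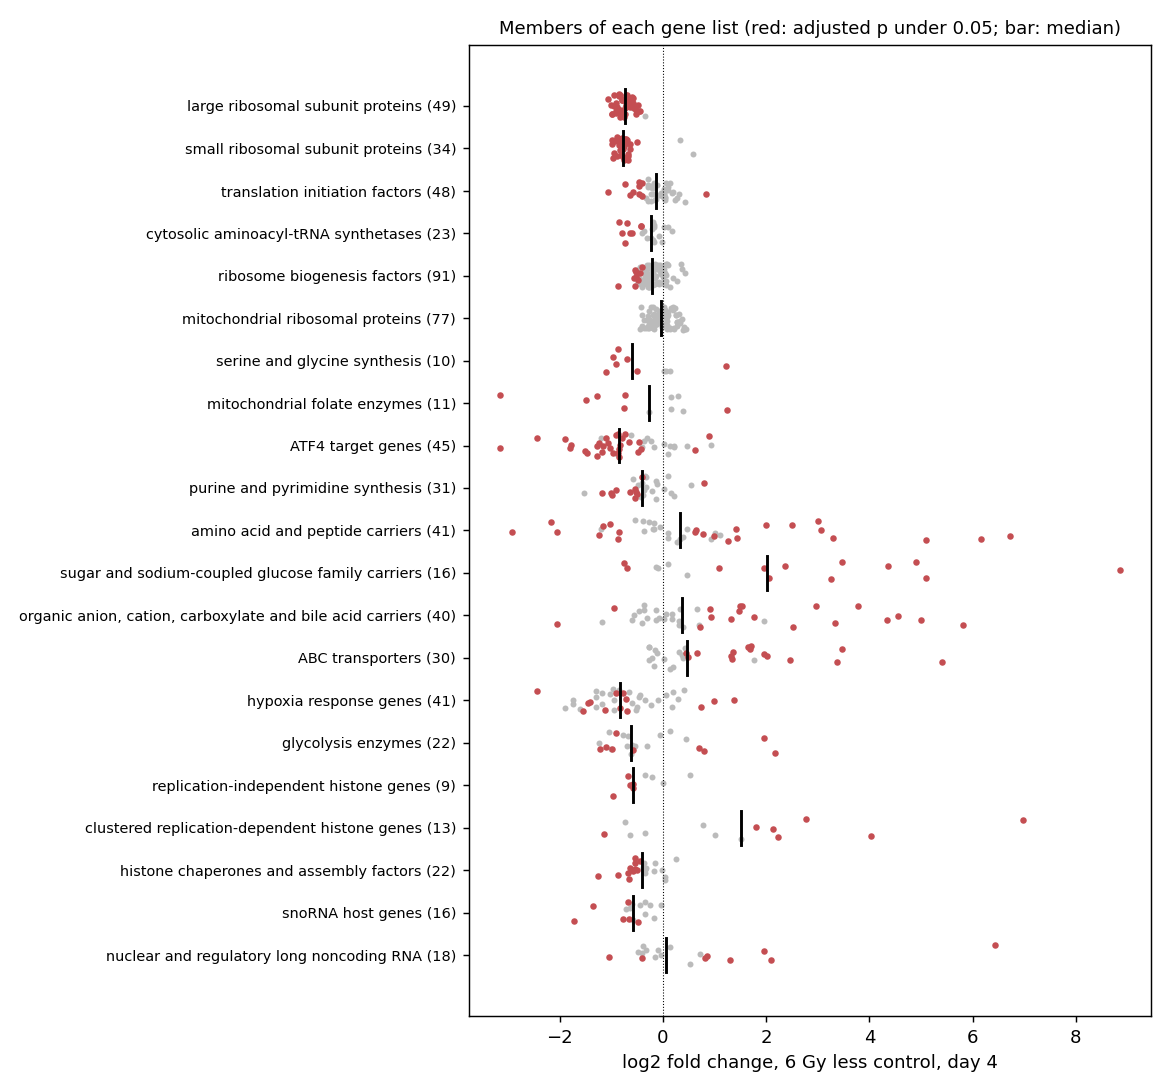
Log2 fold change (irradiated less control, horizontal axis) of every tested member of 21 gene lists, with the number tested in brackets. Red points passed an adjusted p under 0.05, grey points did not, and a black bar marks the median, which runs from -0.85 for ATF4 target genes to 2.01 for sugar carriers.

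By absolute change in level, the called genes that gained most included Cyp3a11, Sis, Gsta1, Apob, Selenop, Cyp2c29, Anpep, Apoa4 and Malat1, most of them products of enterocytes that process drugs, fat or sugar. Cyp3a11, a drug-oxidising cytochrome, was at 131 and 36.1 CPM in the controls and at 3373 and 4959 CPM in irradiated 1 and 2. The controls were several-fold apart, both irradiated libraries were far above them, and the adjusted p of 0.0317 became 0.272 without irradiated 1 and 0.315 without irradiated 2. Cyp2c29 behaved likewise, with 74.3 and 22.2 CPM against 1322 and 1821 CPM and an adjusted p of 0.0433, 0.278 and 0.319 in the same 3 fits. Gsta1, a glutathione transferase, was at 328 and 219 CPM against 1990 and 2548 CPM and stayed under the threshold in each fit that left out 1 library. The called genes that lost most were Scd2, Pkm, Pgk1, Rpl4, Rps6, Rpsa, Pabpc1, Aldoa, Rps4x and Rplp0. Of these 10, Scd2 is a fatty acid desaturase, 3 are glycolytic enzymes and the rest belong to translation. Scd2 fell from 2572 and 2410 CPM to 848 and 1048 CPM. Of these rises and falls, Malat1, Pabpc1, Pkm, Pgk1, Aldoa, Rpl4, Rpsa, Rplp0, Apoa4 and Sis lost their call without either control (adjusted p = 0.0534 to 0.273), Rplp0 also without irradiated 2 (0.0511), and Rps4x and Rps6 without control 2 (0.0620 and 0.0537).

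Cytosolic ribosomal proteins fell nearly without exception. In the large subunit 47 of 49 genes fell, beside 9.76% of all genes, and the median log2 fold change was -0.74 beside -0.01 over all genes. In the small subunit 32 of 34 fell (median -0.77), and no ribosomal protein gene of either list rose. The summed level of the large subunit list was 30340 and 32820 CPM in the controls and 19810 and 17550 CPM in irradiated 1 and 2. The small subunit list summed to 19420 and 21500 CPM against 12520 and 10960 CPM. All 49 large subunit genes and 32 of 34 small subunit genes had both irradiated libraries below both controls, which held for 32.7% of all genes tested. Within the irradiated pair, 1 large subunit gene was lower in irradiated 1 than in irradiated 2, so the fall was deeper in the library with more mitochondrial RNA in nearly every gene. Copies of ribosomal protein genes among the pseudogenes can take reads from their parents. Of all 577 processed pseudogenes tested, whatever their parent gene, 70 fell and 16 rose, beside 9.76% and 13.6% of all genes. The copies of ribosomal protein genes were not counted apart.

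Single ribosomal protein genes lay close to their list. Rpl32 was at 603 and 631 CPM in the controls and at 321 and 273 CPM after irradiation (log2 fold change -1.06, SE 0.144, adjusted p = 0.00147). Rps27 was at 252 and 238 CPM against 124 and 123 CPM (-0.99, SE 0.119, adjusted p = 8.20e-04). Both pairs of replicates agreed closely and the groups were far apart. Rpl17 (902 and 910.1 against 459 and 458 CPM) and Rpl23a (702 and 696 against 371 and 350 CPM) had the same size of change. Rplp0, a stalk protein of the large subunit, was at 1785 and 2055 CPM against 1305 and 1067 CPM (-0.69, SE 0.186, adjusted p = 0.0269), and its adjusted p was 0.0921 without control 1, 0.224 without control 2 and 0.0511 without irradiated 2. Rpl18 (332, 418, 290 and 213 CPM, adjusted p = 0.0546) and Rpl36al (127, 129, 109 and 93.1 CPM, adjusted p = 0.0752) were the large subunit genes that missed the threshold. The small subunit exceptions were Rps27l, a p53-responsive relative of Rps27, and Rps4l. Rps27l went the other way, with 47.9 and 53.4 CPM in the controls and 69.2 and 59.1 CPM after irradiation, without passing (0.34, SE 0.139, adjusted p = 0.112). Rps4l had 18 counts in both controls together and 19 in both irradiated libraries. Leaving out a control reduced the calls most, to 32 large and 27 small subunit genes without control 1 and to 16 and 13 without control 2, with medians of -0.82 and -0.86, and of -0.67 and -0.71.

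**Figure D2:**
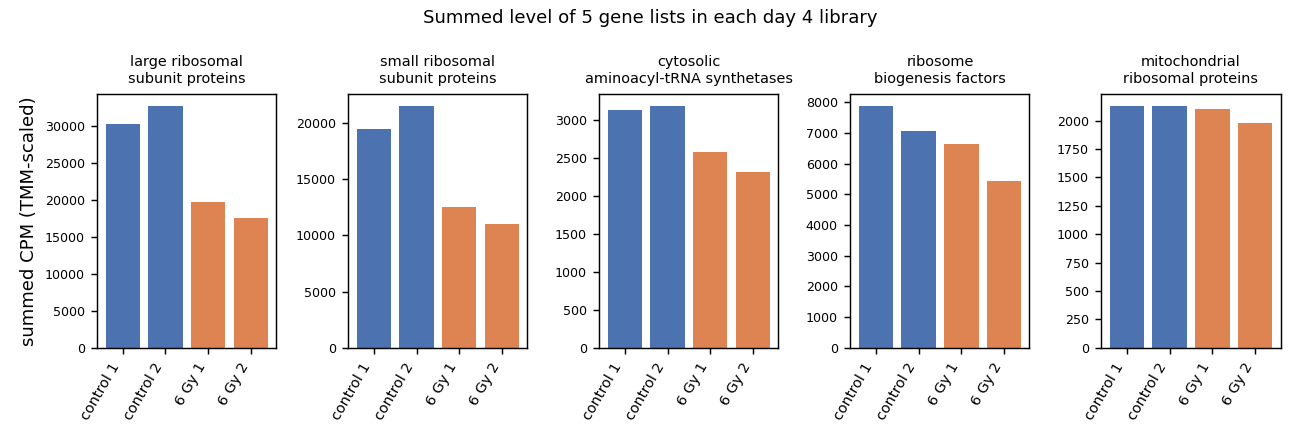
Summed CPM of 5 gene lists (vertical axes, each from 0) in control replicates 1 and 2 (blue) and irradiated replicates 1 and 2 (orange); each bar is 1 library, with no error bar. Both irradiated bars stand below both controls for cytosolic ribosomal proteins (19810 and 17550 against 30340 and 32820 CPM for the large subunit), whereas the mitochondrial ribosome differs little (2102 and 1978 against 2125 and 2131 CPM).

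The factors that work on the ribosome moved less than its proteins. Of 48 initiation factors 9 fell and 1 rose (median -0.14), of 17 elongation and release factors 3 fell, of 23 cytosolic aminoacyl-tRNA synthetases 8 fell (median -0.23) and of 91 ribosome biogenesis factors 9 fell (median -0.22), a share of the last list near the 9.76% of all genes. Mitochondrial ribosomal proteins stayed near the control level, with 0 of 77 called by edgeR and a median of -0.04. Eif4ebp1, the inhibitor of cap-dependent initiation that ATF4 also drives, was at 25.9 and 33.5 CPM against 13.6 and 15.0 CPM (-1.06, SE 0.189, adjusted p = 0.00508). Eif6, which keeps the subunits apart, was the initiation factor that rose, from 40.1 and 40.7 CPM to 83.0 and 61.2 CPM (0.84, adjusted p = 0.00740). Eif4b, the helper of the cap helicase, fell from 893 and 1045 CPM to 596 and 569 CPM, and Eif3e, a subunit of the initiation complex, from 253 and 293 CPM to 189 and 176 CPM. Pabpc1, the poly-A binding protein, fell from 2155 and 2245 CPM to 1474 and 1362 CPM, with an adjusted p of 0.0302, and of 0.148 and 0.220 without control 1 and 2. The calls of Eif4b, Eif3e and Eif6 were each lost without control 2 (adjusted p = 0.117, 0.123 and 0.0577), and that of Eif6 also without control 1 (0.0535).

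Eef1b2 and Eef1g, exchange factor subunits of elongation, fell from 809 and 858 to 492 and 440.1 CPM and from 807 and 876 to 568 and 501 CPM. Tpt1 fell from 1785 and 1757 to 1126 and 1215 CPM. These 3 calls were lost without control 2 (adjusted p = 0.0514 to 0.193), those of Eef1g and Tpt1 also without control 1 (0.0651 and 0.173) and that of Tpt1 without irradiated 1 (0.0506). Eef1a1, the elongation factor that brings tRNA to the ribosome, was at 16552 and 16331 CPM against 10003 and 9237 CPM, which did not pass (-0.77, SE 0.266, adjusted p = 0.0646). Eef2, the translocase, was at 3105 and 3595 CPM against 2546 and 2253 CPM (-0.48, adjusted p = 0.118). In both the irradiated libraries lay below the controls, with a larger SE (0.266 and 0.202) than for Rpl32, Rps27 and Rplp0. The replicates of Eef1a1 themselves lay close. Synthetases are known by the amino acid they load, and the log2 fold change was -0.74 for Mars, -0.79 for Yars, -0.69 for Iars, -0.85 for Cars and -0.60 for Nars. All but Iars lost their call without control 2 (adjusted p = 0.0532 to 0.0648), and Nars also without control 1 (0.0726). Of the 23 synthetases, 8 are also in the list of ATF4 targets. Without control 1, 4 synthetases and 3 initiation factors were called lower, and without control 2, 2 and 1, with 1 and 0 elongation factors.

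Biogenesis of ribosomes was lower in level in most members without reaching a call: 73 of 91 had a negative fold change. Nop56, of the box C/D snoRNP, fell from 243 and 225 to 172 and 146 CPM, and Polr1a, the largest subunit of RNA polymerase I, from 105 and 95.3 to 74.8 and 63.3 CPM. Gnl3 fell from 148 and 120 to 99.7 and 85.9 CPM, and the rRNA methylase Dimt1 from 9.41 and 10.6 to 5.54 and 5.41 CPM. Nucleolin (Ncl, 1408 and 1157 against 1084 and 850.0 CPM), nucleophosmin (Npm1, 1217 and 1166 against 908 and 766 CPM) and Polr1b (64.6 and 58.9 against 55.1 and 47.3 CPM) did not pass, with adjusted p of 0.149, 0.0508 and 0.191. The calls of Nop56, Polr1a and Dimt1 were lost without either control (adjusted p = 0.0670 to 0.161), that of Gnl3 without control 1 (0.181), those of Gnl3 and Dimt1 without irradiated 2 (0.0547 and 0.0717) and that of Dimt1 without irradiated 1 (0.0585). The biogenesis list depended on single libraries: 0 fell without control 1, 1 without control 2, 24 without irradiated 1 and 2 without irradiated 2. Its median against the control mean was -0.06 in irradiated 1 and -0.38 in irradiated 2. Mitosis genes, which mark dividing cells, moved with the translation lists. All 18 had both irradiated libraries below both controls, 16 of 18 were called, and their sum was 2928 and 2726 CPM against 1628 and 1316 CPM, led by Mki67 (1022 and 993 against 485 and 422 CPM). Their part in the result was not tested.

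Several enzymes of serine synthesis and of the mitochondrial folate path fell. Of 10 genes of serine and glycine synthesis 6 fell and 1 rose (median -0.61), and of 11 mitochondrial folate genes 5 fell and 1 rose (median -0.27), whereas of 13 cytosolic folate genes 1 fell and 1 rose (median -0.02). Of the 11 mitochondrial genes 5 had positive fold changes. Without control 2, 2 serine and 4 mitochondrial folate genes fell, and without control 1, 5 and 2. Phgdh, which takes glycolytic carbon into serine, was at 145 and 159 CPM against 97.8 and 68.3 CPM (-0.87, SE 0.174, adjusted p = 0.0108, and 0.0702 without control 2). Psat1, the next enzyme, was at 118 and 146 CPM against 71.4 and 52.1 CPM (-1.10, adjusted p = 0.00522). Psph, which releases serine, fell from 10.7 and 12.7 to 6.65 and 5.82 CPM (adjusted p = 0.0201, and 0.144 without control 2 and 0.0671 without irradiated 2). All 3 steps from glycolysis to serine were lower in both irradiated libraries, and lowest in irradiated 2. Srr, which turns L-serine into D-serine, rose from 19.6 and 17.3 to 36.8 and 49.4 CPM.

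In mitochondria, Shmt2, which passes the 1-carbon unit of serine to folate, was at 82.9 and 92.4 CPM in the controls and at 50.4 and 39.2 CPM after irradiation (-0.97, SE 0.152, adjusted p = 0.00288). Mthfd2, the next enzyme, was at 57.9 and 76.6 CPM against 25.8 and 29.5 CPM (-1.28, SE 0.172, adjusted p = 0.00141). Aldh1l2, which burns formyl groups to carbon dioxide, was at 28.2 and 29.1 CPM against 3.12 and 3.27 CPM (-3.16, SE 0.203, adjusted p = 4.01e-05). Aldh1l2 had the smallest adjusted p of the folate genes and tight replicates in both groups. Mthfd1l, which releases formate, fell from 56.6 and 48.9 to 35.1 and 27.6 CPM (adjusted p = 0.0756 without control 1). Pdf, the mitochondrial deformylase, fell from 8.45 and 7.01 to 3.12 and 2.35 CPM, that is from 227 to 54 counts (adjusted p = 0.0552 without control 1). Sardh, which breaks down sarcosine, rose from 2.25 and 2.35 to 5.14 and 5.82 CPM, a call lost without control 1, control 2 or irradiated 2 (adjusted p = 0.0945, 0.102 and 0.0908). Mthfd1, the cytosolic counterpart, was at 127 and 124 CPM against 111 and 89.1 CPM (-0.33, adjusted p = 0.112). Slc46a1, the proton-coupled folate carrier of the gut surface, rose from 4.59 and 4.14 to 24.5 and 42.9 CPM (2.95, SE 0.299, adjusted p = 8.84e-04).

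In the methionine cycle 2 of 17 rose and 3 fell, beside 13.6% and 9.76% of all genes. Cth, the last enzyme of cysteine synthesis, fell from 72.7 and 99.8 to 38.1 and 42.4 CPM. Ahcy, which splits S-adenosylhomocysteine, fell from 260 and 286 to 195 and 163 CPM (adjusted p = 0.0136, and 0.104 without control 2), and the salvage enzyme Adi1 by 0.48 on the log2 scale. Ahcyl2 rose from 98.0 and 121 to 218 and 248 CPM, and Apip from 3.86 and 2.35 to 7.65 and 6.94 CPM. Purine and pyrimidine synthesis had 10 of 31 lower and 1 higher (median -0.40), and 5, 2, 18 and 6 lower without control 1, control 2, irradiated 1 and irradiated 2. Impdh2, the entry to guanine nucleotides, fell from 271 and 297 to 152 and 131 CPM. Dhodh, the mitochondrial step of pyrimidine synthesis, fell from 16.8 and 20.9 to 8.56 and 8.07 CPM. The salvage kinase Tk1 fell from 33.1 and 38.4 to 21.4 and 14.6 CPM, while the salvage enzyme Aprt rose from 25.99 and 29.7 to 50.9 and 46.2 CPM. Irradiated 2 was below irradiated 1 in 28 of the 31 nucleotide genes. Some of these calls were lost in fits without 1 library, where a group holds 1 library. Adi1 lost its call without control 1, control 2 or irradiated 2, and Apip without control 2 or irradiated 1. Aprt lost its call without control 1 and Tk1 without control 2. Over all such fits the log2 fold change was -0.603 to -0.373 for Adi1 and 0.907 to 1.615 for Apip. It was 0.694 to 0.89 for Aprt and -1.295 to -0.75 for Tk1.

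**Figure D3:**
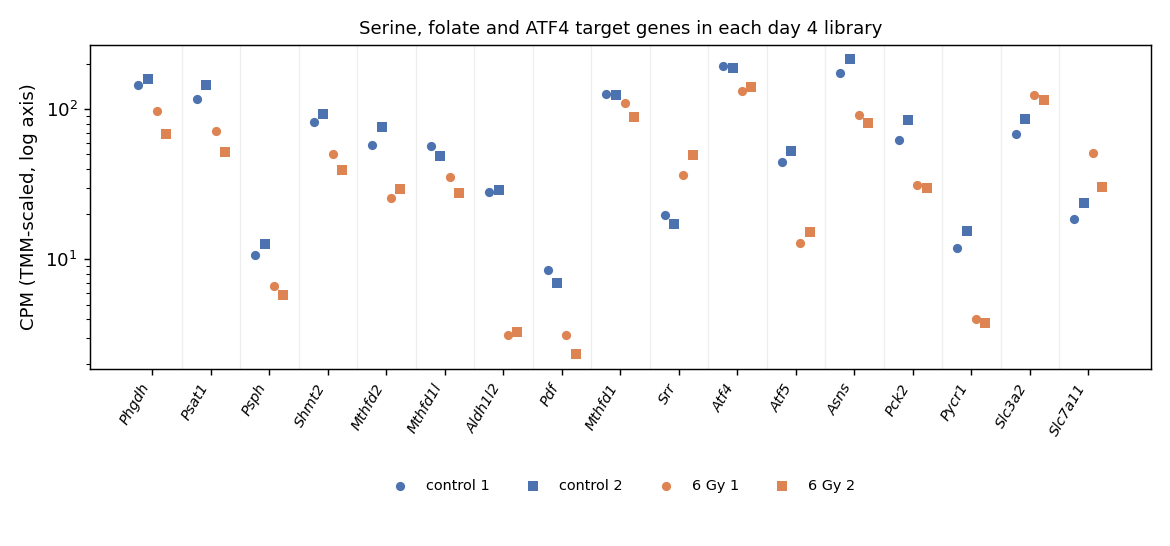
Level (CPM, log axis) of 17 genes of serine and folate metabolism and of the ATF4 list in each day 4 library; circles are replicate 1 and squares replicate 2, blue for control and orange for irradiated. Aldh1l2 stands out at 28.2 and 29.1 CPM against 3.12 and 3.27 CPM, and Srr, Slc3a2 and Slc7a11 are the genes drawn with higher irradiated points.

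ATF4 target genes fell as a group: 28 of 45 were lower and 2 higher, with a median of -0.85. Of the 45, 28 are also in another list, such as the serine, folate and synthetase lists. Atf4 itself was at 194 and 190 CPM against 133 and 140 CPM (-0.49, SE 0.116, adjusted p = 0.0164, and 0.0922 and 0.0929 without control 1 and 2). Asns, asparagine synthetase, was at 174 and 215 CPM against 91.1 and 80.8 CPM (-1.18, SE 0.143, adjusted p = 8.60e-04). Atf5, a related transcription factor, fell from 44.5 and 52.7 to 12.9 and 15.2 CPM (-1.79). Pck2, mitochondrial PEP carboxykinase, fell from 62.9 and 84.7 to 31.4 and 29.8 CPM (-1.27). Pycr1, for proline synthesis, fell from 11.9 and 15.4 to 4.03 and 3.78 CPM, and Chac1, which degrades glutathione, from 233 counts to 40 (adjusted p = 0.0760 without control 2). These falls were of like size in irradiated 1 and 2, with list medians of -0.76 and -0.84 against the control mean. The members that rose were Sesn2, a leucine sensor that p53 also drives (20.1 and 30.8 against 55.2 and 39.3 CPM, adjusted p = 0.0485, and 0.148 and 0.115 without control 1 and irradiated 1), and Slc3a2, the heavy chain of amino acid exchangers (68.8 and 86.3 against 124 and 115 CPM, adjusted p = 0.0130, and 0.119 without control 1). Slc7a11, the cystine exchanger, was at 18.5 and 23.8 CPM against 51.2 and 30.3 CPM and missed the threshold (0.94, SE 0.271, adjusted p = 0.0509). The list had 24 lower members without control 1, 14 without control 2, 30 without irradiated 1 and 28 without irradiated 2.

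Promoter sequence was looked at because the list is defined by binding of a factor with a known motif. RefSeq promoters (GRCm38.p6, 250 bases before to 50 after each start) were found for 38 of the 47 listed ATF4 targets. The motif TGATGNAA, searched on both strands (TTNCATCA on the other), was in at least 1 promoter of 15 of the 38 genes and in 31.9% of their 47 promoters, against 3.97% of all 32851 promoters. The windows below belong to called members with large falls and were chosen after their values were seen; capitals mark the motif, and each is written 5′ to 3′ on the strand of the gene.
Asns, chr6:7693210-7693252, minus strand: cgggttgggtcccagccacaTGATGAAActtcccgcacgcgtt
Pck2, chr14:55540143-55540190, plus strand: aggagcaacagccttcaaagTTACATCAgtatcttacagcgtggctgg
Pycr1, chr11:120643824-120643871, minus strand: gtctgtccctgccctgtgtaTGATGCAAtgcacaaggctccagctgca
Chac1, chr2:119351029-119351076, plus strand: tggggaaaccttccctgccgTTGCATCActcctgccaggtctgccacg
The motif begins 23 bases before the start in Asns, 103 in Pck2 and Pycr1 and 193 in Chac1. Of 13 tested members with the motif 7 fell and 0 rose (median -0.89), and of 23 without it 15 fell and 2 rose (median -0.83). The 2 groups of members were not tested against each other, and their medians were close.

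Membrane transporters were called in both directions. Of 41 amino acid and peptide carriers 15 rose and 8 fell (median 0.34), and of 16 carriers of the sugar and sodium-glucose families 10 rose and 2 fell (median 2.01), where 13.6% of all genes rose and 9.76% fell. Only 41 of 69 and 16 of 30 listed members passed the filter on low counts, some of them only through the irradiated libraries, so these counts and medians support no direction of the lists; the same holds for the carrier lists that follow. ABC transporters had 15 of 30 higher and 0 lower (median 0.47), and organic ion, carboxylate and bile acid carriers 16 of 40 higher and 2 lower (median 0.36). Nucleotide sugar carriers had 13 of 29 higher and 0 lower, ion exchangers 11 of 31 higher and 1 lower, metal carriers 5 of 26 higher, and mitochondrial carriers 4 of 39 higher. The medians of the last 4 lists were 0.41, 0.51, 0.24 and 0.24. On the log2(TPM + 1) scale the ion exchanger median was -0.01 and the mitochondrial carrier median -0.07. Both were above the median of all genes on that scale, -0.18. Without control 1, 9 amino acid and peptide carriers and 8 nucleotide sugar carriers were called higher. Without control 2, 7 ABC transporters, 5 nucleotide sugar carriers, 7 ion exchangers, 2 metal carriers and 1 mitochondrial carrier were called higher.

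Among the carriers that rose were several of the absorptive epithelium. Slc15a1, the peptide transporter PEPT1, was at 3.78 and 1.55 CPM in the controls and at 71.8 and 104 CPM after irradiation (5.10, SE 0.44, adjusted p = 0.00311). Slc6a19, the apical neutral amino acid carrier, was at 14.6 and 10.5 CPM against 88.6 and 119 CPM (3.07, SE 0.218, adjusted p = 2.10e-04). Slc5a1, the sodium-glucose carrier SGLT1, was at 207 and 247 CPM against 671 and 1211 CPM (2.05, SE 0.304, adjusted p = 0.00809, and 0.0505 without control 1). In all 3 irradiated 2 was above irradiated 1 and the groups were far apart. Slc43a2, a carrier of large neutral amino acids, rose from 9.09 and 6.26 to 62.5 and 60.04 CPM, the creatine carrier Slc6a8 from 25.9 and 28.03 to 92.5 and 123 CPM, and Slc7a7, the basolateral exchanger of cationic amino acids, from 29.1 and 28.8 to 65.7 and 72.9 CPM. Slc7a15 went from 9 counts in the controls to 653 after irradiation, a ratio of 110 (exact binomial interval 57.5 to 241, for counting error only).

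Slc2a2, the basolateral glucose carrier GLUT2, rose from 17.9 and 18.3 to 164 and 237 CPM, and Slc5a9 from 6.19 and 7.70 to 21.9 and 32.7 CPM. Slc5a12, a monocarboxylate carrier of the sodium-glucose family, had 2 counts in the controls and 699 after irradiation (ratio 529, interval 146 to 4370). Slc5a4b went from 27 to 551 counts and the apical hexose carrier Slc2a7 from 10 to 142. The sugar carriers that fell were Slc2a1, the general glucose carrier GLUT1 (65.5 and 74.0 against 37.8 and 48.3 CPM; -0.70, SE 0.155, adjusted p = 0.0127, and 0.101 without control 2), and Slc5a3, the inositol carrier (26.4 and 37.9 against 19.1 and 19.1 CPM, adjusted p = 0.0259, and 0.198 without control 2). So the glucose carriers of the enterocyte and the general one moved in opposite directions.

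The amino acid carriers that fell include general carriers that ATF4 drives, named here after their values were seen. Slc7a1, for cationic amino acids, fell from 148 and 159.6 to 86.0 and 65.0 CPM, and Slc38a2, for small neutral ones, from 236 and 266 to 130.2 and 148 CPM. Slc1a5, for glutamine, fell from 37.3 and 57.6 to 19.8 and 22.8 CPM, and Slc1a4, for serine and alanine, from 65.6 and 98.4 to 29 and 40.4 CPM. Slc7a5, the large neutral exchanger LAT1, fell from 37.1 and 43.02 to 25.2 and 18.6 CPM (adjusted p = 0.0102, and 0.0729 without control 2). The irradiated libraries were below both controls in all 5. This adds nothing to their calls, since none of the 3228 called genes had overlapping groups.

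**Figure D4:**
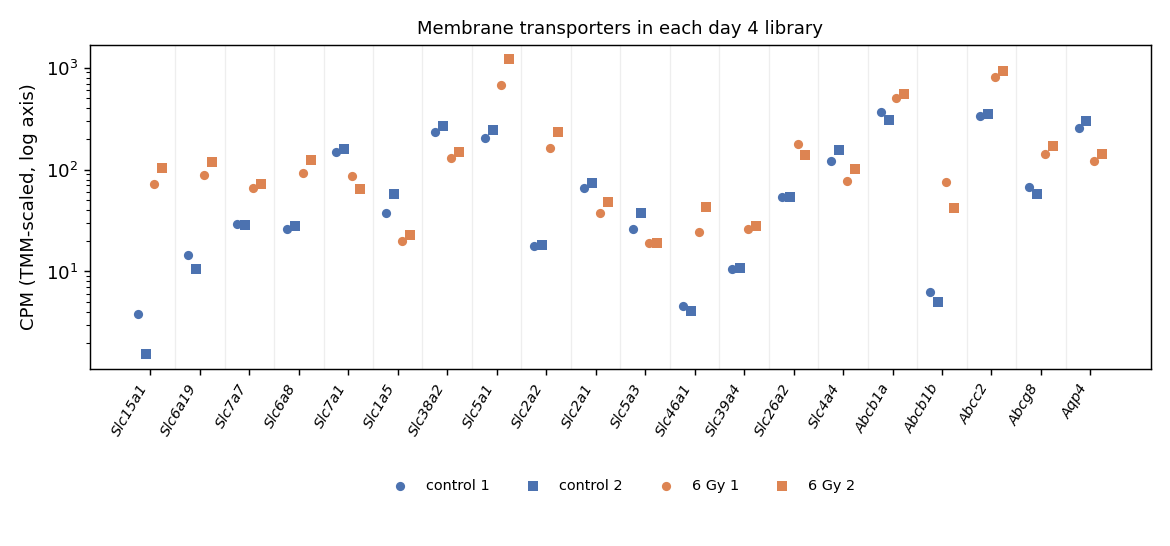
Level (CPM, log axis) of 20 membrane transporters in each day 4 library; circles are replicate 1 and squares replicate 2, blue for control and orange for irradiated. Slc15a1 lies at 71.8 and 104 CPM after irradiation against 3.78 and 1.55 CPM, while Slc7a1, Slc1a5, Slc38a2, Slc2a1, Slc5a3, Slc4a4 and Aqp4 have irradiated points below the controls.

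Several export pumps were also called higher. Abcc2, which exports conjugates at the apical face, was at 340 and 355 CPM against 805 and 923 CPM (1.31). Abcg8 and Abcg5, the pair that returns sterols to the lumen, rose from 68.0 and 57.7 to 143 and 172 CPM and from 56.8 and 36.2 to 156 and 205 CPM. Abcb1a, the main multidrug pump of the mouse gut, was at 368 and 304 CPM against 503 and 558 CPM (0.66, SE 0.15, adjusted p = 0.0139, and 0.179 without control 2). Its near copy Abcb1b, with which it can share reads, rose from 6.28 and 5.05 to 75.2 and 42.0 CPM (3.38, SE 0.33, adjusted p = 0.00189). Abcc5 rose from 18.7 and 18.04 to 47.1 and 71.4 CPM. Abcb1b was higher in irradiated 1, whereas the other pumps named were higher in irradiated 2.

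Carriers of other solutes followed. Slc26a2, for sulfate, rose from 53.5 and 54.3 to 179 and 141 CPM and the phosphate carrier Slc20a1 from 94.4 and 68.4 to 232 and 196 CPM. The phosphate carrier Slc34a2 went from 12 to 156 counts, a ratio of 19.7 (interval 10.9 to 38.9). For metals, the zinc importer Slc39a4 rose from 10.5 and 10.8 to 26.1 and 27.8 CPM, the zinc exporter Slc30a2 from 13.8 and 11.9 to 37.0 and 59.4 CPM, and ferroportin (Slc40a1) from 6.92 and 5.97 to 21.9 and 43.8 CPM (adjusted p = 0.0905 and 0.132 without control 1 and 2). The carnitine carrier Slc22a5 rose from 13.6 and 13.7 to 36.3 and 42.99 CPM and the prostaglandin carrier Slco2a1 from 5.79 and 5.17 to 17.8 and 19.5 CPM. Slc47a1, an exporter of organic cations, went from 16 to 252 counts. Slco2b1 (37.3 and 36.6 against 14.4 and 23.8 CPM) and Slc23a4 (147 against 23 counts) were the organic ion carriers that fell, and Slc4a4, the sodium bicarbonate cotransporter, was the ion exchanger that fell (121 and 157 against 76.9 and 103 CPM). Aqp4, a basolateral water channel, fell from 259 and 300 to 121 and 144 CPM, whereas Aqp1 rose from 104 and 116 to 213 and 154 CPM (adjusted p = 0.0148, and 0.102 and 0.0650 without control 1 and 2). Slco2b1 and Slc4a4 lost their call without control 2 (adjusted p = 0.108 and 0.224), as did Slc23a4 (0.0587), Slco2b1 also without control 1 (0.104) and Slc4a4 without irradiated 1 (0.0817). Of the 14 enterocyte markers 11 were called higher, among them Slc5a1 and Slc2a2, which are also among the carriers. The 14 summed to 3804 and 3478 CPM against 12270 and 20010 CPM. All 14 were higher in irradiated 2 than in irradiated 1, and their part in the transporter result was not tested.

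Hypoxia response genes were lower in irradiated organoids, and the irradiated libraries lay apart. Of 41 tested, 10 fell and 3 rose (median -0.83, beside -0.01 over all genes). Their summed level was 4111 and 4654 CPM in the controls, 1678 CPM in irradiated 1 and 3036 CPM in irradiated 2. Against the control mean the median was -1.02 in irradiated 1 and -0.47 in irradiated 2 on the scale of log2(CPM + 0.5). Irradiated 1 was below irradiated 2 in 37 of 41 genes, compared with 6655 of all 13826 genes tested, and 14 of the 41 were at least 2-fold apart. Both irradiated libraries were below both controls for 27 of 41 (65.9%), compared with 32.7% of all genes. Without irradiated 2, 29 members fell; without irradiated 1, 17 fell and the median was -0.47. Without control 1 and control 2, 4 and 2 fell. With library totals, 24 fell.

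Several HIF targets had a wide gap between replicates. Bnip3, which removes mitochondria, was at 180 and 195 CPM in the controls, at 20.1 CPM in irradiated 1 and at 81.1 CPM in irradiated 2 (-1.89, SE 0.843, adjusted p = 0.255). Egln3, the inducible oxygen sensor, was at 153 and 208 CPM, 25.9 CPM and 122 CPM (-1.29, SE 0.967, adjusted p = 0.454). Car9, carbonic anhydrase 9, was at 155 and 194 CPM, 50.3 CPM and 129 CPM (-0.96, SE 0.565, adjusted p = 0.341). In all 3 the irradiated libraries lay below the controls, several-fold in irradiated 1 and less in irradiated 2, and none passed. Vegfa, the angiogenic ligand, was at 149 and 184 CPM, 47.8 CPM and 99.6 CPM (-1.18, SE 0.415, adjusted p = 0.143). Ankrd37 was at 23.4 and 23.1 CPM, 3.32 CPM and 19.6 CPM (-1.02, SE 0.913, adjusted p = 0.512), and Ero1l at 668 and 970.5 CPM, 118 CPM and 370 CPM (-1.75, adjusted p = 0.212).

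Other hypoxia genes passed the test. Hk2, the inducible hexokinase, was at 111 and 116 CPM against 58.5 and 62.0 CPM (-0.92, SE 0.119, adjusted p = 0.00119). Zfp395 fell from 36.3 and 43.6 to 14.3 and 14.9 CPM (-1.45), and Ddit4, an inhibitor of mTORC1, from 59.4 and 74.3 to 42.3 and 33.2 CPM (-0.83). Egln1, the main oxygen sensor, fell from 85.2 and 84.3 to 30.2 and 47.4 CPM (-1.13). Pdk1, which shuts pyruvate out of mitochondria, fell from 266 and 270.2 to 67.4 and 116 CPM, and Stc2 from 60.6 and 68.5 to 6.95 and 16.7 CPM; both were named after their values were seen and lost their call without either control (adjusted p = 0.0772 to 0.175). The members that rose were Pfkfb4 (20.8 and 21.1 against 34.1 and 49.3 CPM), Insig2 (26.3 and 28.4 against 41.1 and 49.6 CPM) and Angptl4 (8.93 and 15.5 against 36.7 and 27.1 CPM), which the fatty acid sensors of the PPAR family also drive. Among 11 factors and regulators, Epas1 (HIF-2α, 17.9 and 29.4 against 44.1 and 48.4 CPM) and Arnt2 (12.95 and 6.95 against 45.2 and 27.8 CPM) rose and Siah2 fell (14.7 and 17.6 against 7.55 and 9.70 CPM). Among these calls, those of Egln1, Pfkfb4 and Insig2 were lost without either control (adjusted p = 0.0564 to 0.0763), those of Ddit4, Arnt2 and Siah2 without control 2 (0.0832, 0.0516 and 0.111), that of Siah2 also without irradiated 1 (0.0620) and that of Epas1 without control 1 or irradiated 2 (0.0702 and 0.0840). Hif1a was at 99.0 and 96.7 CPM against 131 and 112 CPM (0.31, adjusted p = 0.108; -0.01 on the log2(TPM + 1) scale).

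**Figure D5:**
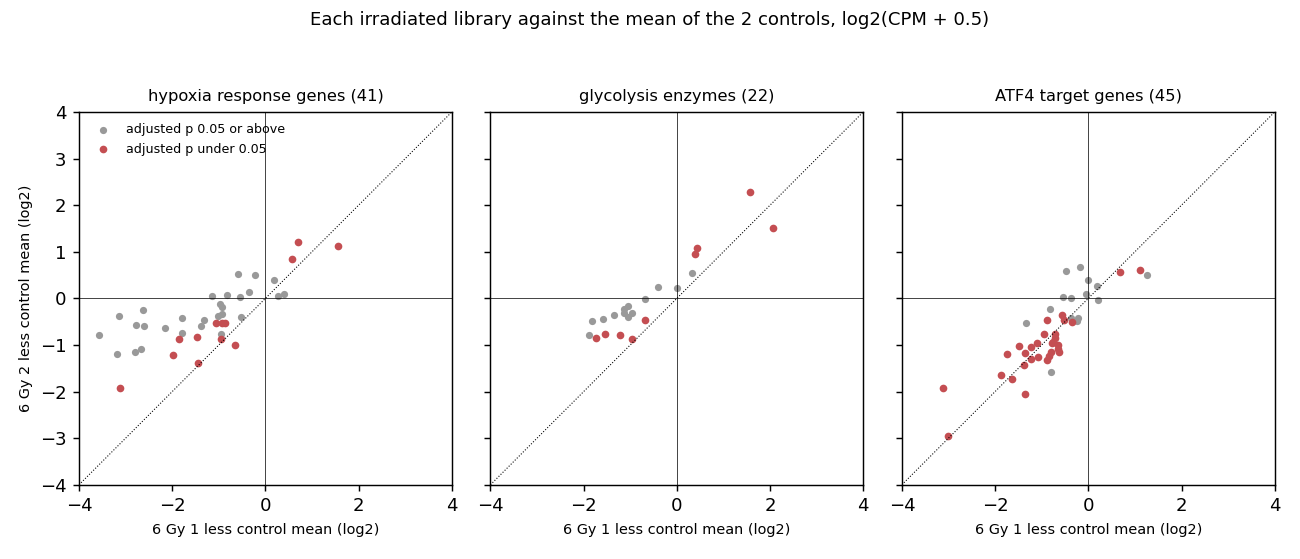
Irradiated replicate 1 (horizontal) and replicate 2 (vertical), each as log2(CPM + 0.5) less that of the control mean, for every tested gene of 3 lists; red points passed an adjusted p under 0.05 and the dotted line marks equal change. Hypoxia and glycolysis genes lie left of and above the line (medians -1.02 and -1.01 in irradiated 1, -0.47 and -0.32 in irradiated 2), and ATF4 targets lie along it (-0.76 and -0.84).

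Promoters were searched for the core of the HIF motif, ACGTG on either strand (CACGT on the other, and CACGTG holds both). It was in at least 1 promoter of 23 of the 35 hypoxia genes found in RefSeq and in 52.1% of their 48 promoters, against 19.6% of all 32851. The following windows belong to called genes named above that hold it (Egln1 and Slc2a1 lost their call without control 2, adjusted p = 0.0578 and 0.101), with the motif in capitals, each 5′ to 3′ on the strand of the gene in GRCm38.p6.
Egln1, chr8:124949298-124949342, minus strand: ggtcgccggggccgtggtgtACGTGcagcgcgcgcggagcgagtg
Hk2, chr6:82774482-82774526, minus strand: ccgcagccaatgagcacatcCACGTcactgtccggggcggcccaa
Slc2a1, chr4:119108689-119108733, plus strand: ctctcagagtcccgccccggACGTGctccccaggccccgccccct
The motif begins 68, 52 and 36 bases before the start in these genes, and Hk2 holds another 226 bases before. Of 21 tested members with the motif 5 fell and 0 rose (median -0.96), and of 11 without it 2 fell and 2 rose (median -0.10). The difference between these medians was not tested.

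Of 22 glycolysis genes 5 were called lower and 4 higher (median -0.61). As in the hypoxia list, irradiated 1 was mostly below irradiated 2, here in 21 of 22 genes. Their summed level was 14340 and 15540 CPM in the controls and 10160 CPM in irradiated 1. In irradiated 2 it was 16660 CPM, above both controls. Pkm, the pyruvate kinase of dividing cells, fell from 2184 and 2358 to 981 and 1323 CPM. Pgk1 fell from 1670 and 1796 to 522 and 966 CPM and Aldoa from 1306 and 1581 to 497 and 847 CPM. All 3 lost their call without either control (adjusted p = 0.0534 to 0.129), while without irradiated 2 15 glycolysis genes fell. Ldha, which makes lactate, was at 1284 and 1283 CPM, 620.4 CPM in irradiated 1 and 1143 CPM in irradiated 2 (-0.54, SE 0.283, adjusted p = 0.220). Gapdh was at 2249 and 2261 CPM, 1413 CPM and 2237 CPM (-0.31, adjusted p = 0.386). Of 16 genes of gluconeogenic and fructose enzymes 8 were called higher and 2 lower (median 0.68), beside 13.6% and 9.76% of all genes. Pcx, pyruvate carboxylase, rose from 6.44 and 4.94 to 21.0 and 20.6 CPM and Pck1, cytosolic PEP carboxykinase, from 24 to 354 counts. The members that fell were Pck2 and the galactokinase Galk1 (27.7 and 42.8 against 18.1 and 20.1 CPM). Galk1 lost its call without control 2 or irradiated 1 (adjusted p = 0.150 and 0.0711). The count of risers was 4 without control 1 and 3 without control 2.

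Several replication-independent histone genes fell. Of 9 such genes, which make polyadenylated mRNA, 5 fell and 0 rose (median -0.58). H2afx, the variant phosphorylated at DNA breaks, was at 27.03 and 25.96 CPM against 17.8 and 15.1 CPM (-0.69, SE 0.171, adjusted p = 0.0205). H1f0, a linker histone, was at 194 and 219 CPM against 131 and 136 CPM (-0.63, SE 0.123, adjusted p = 0.00747). Cenpa, the centromeric variant, fell from 51.9 and 53.0 to 29.8 and 24.1 CPM, H2afz from 213 and 214 to 153 and 132 CPM and H2afv from 37.2 and 39.7 to 27.7 and 23.8 CPM. The call of H2afx was lost without control 1, control 2 or irradiated 2 (adjusted p = 0.0746 to 0.0804), and without control 1 and 2 the list had 2 and 1 called. Histone chaperones and assembly factors had 11 of 22 lower and 0 higher (median -0.42). Rbbp7 fell from 498 and 684 to 232 and 264 CPM, Hjurp, the chaperone of Cenpa, from 166 and 174 to 99.99 and 86.1 CPM, Anp32b from 331 and 305 to 210.2 and 185 CPM and Anp32e, which removes H2afz, from 177 and 166 to 119 and 98.8 CPM. Without control 1, 2 chaperones were called (Anp32b and Anp32e at adjusted p = 0.0532 and 0.0572), and without control 2, 4.

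Slbp, which binds the stem-loop of replication-dependent histone mRNA, was at 72.1 and 70.3 CPM against 49.0 and 51.1 CPM (-0.51, SE 0.124, adjusted p = 0.0181, and 0.0969 and 0.0992 without control 1 and 2). Eri1, a nuclease acting on those mRNA ends, fell from 52.9 and 61.8 to 43.8 and 35.5 CPM, and these were the 2 called of 17 processing factors. Ezh2, the Polycomb methyltransferase, was at 94.9 and 98.1 CPM against 78.5 and 66.7 CPM (-0.41, SE 0.129, adjusted p = 0.0475, and 0.137 to 0.216 without control 1, control 2 or irradiated 2). Its partner Suz12 fell from 160.4 and 172 to 107 and 103 CPM and Smyd2 by 0.72 on the log2 scale, and the demethylase Kdm7a rose from 46.5 and 46.8 to 64.8 and 83.9 CPM. Eri1 lost its call without control 1, control 2 or irradiated 2 (adjusted p = 0.0653 to 0.243), and Kdm7a without either control (0.0824 and 0.0878). In all, 6 of 45 methyltransferases and demethylases fell and 1 rose, beside 9.76% and 13.6% of all genes. The share that fell was near that of all genes in this list and among the processing factors. Fewer of either list were called lower without control 1 or control 2.

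Clustered histone genes, whose mRNA normally ends without a poly-A tail and so should be largely lost in poly-A selection, had 13 of 69 members with enough counts to test. Of the 13, 6 rose and 1 fell; the filter keeps a gene that is high in 1 group, so this count supports no direction. Hist1h2bc was at 5.63 and 5.69 CPM against 28.5 and 24.8 CPM (2.23, SE 0.192, adjusted p = 1.78e-04). Hist1h1c, a linker histone, was at 5.15 and 6.55 CPM against 23.3 and 17.8 CPM (1.80, SE 0.228, adjusted p = 0.00105). Hist1h2ao fell from 10.3 and 9.94 to 4.83 and 4.29 CPM. The others that rose were low: Hist1h2be went from 10 to 46 counts, Hist2h2aa2 from 3 to 35 (ratio 17.7, interval 5.56 to 89.7) and Hist1h1e from 11 to 32. Hist1h2al, annotated as a pseudogene in GENCODE M21, had 0 counts in the controls and 25 after irradiation, which is at least 12.6-fold higher if the control sum is set to the 3 counts that a 0 allows. Calls of Hist1h1e, Hist1h2be and Hist1h2ao were lost without either control (adjusted p = 0.0502 to 0.177), that of Hist1h1e also without irradiated 1 and irradiated 2 (0.200 and 0.0762), that of Hist1h2be without irradiated 1 (0.0807), that of Hist2h2aa2 without control 1 (0.0548) and that of Hist1h2al without control 2 (0.0528). These genes have near-identical copies, so their reads are uncertain.

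Neat1 and Malat1 rose and several snoRNA host genes fell. Neat1, the scaffold of paraspeckles, was at 458 and 451 CPM in the controls and at 994 and 1241 CPM after irradiation (1.296, SE 0.165, adjusted p = 0.00109). Malat1, a speckle RNA, was at 1877 and 1593 CPM against 2631 and 3452 CPM (0.81, SE 0.213, adjusted p = 0.0252, and 0.125 and 0.273 without control 1 and 2). H19, an imprinted growth-restraining RNA, had 3 counts in the controls and 191 after irradiation, a ratio of 96.3 (interval 32.5 to 471). These 3 rose in both irradiated libraries with no overlap, which held for every called gene and for 66% of all genes tested. H19 passed the filter through the irradiated libraries. In all, 6 of the 18 listed regulatory RNA rose and 2 fell, with a median of 0.05. Under library totals this median was -0.12, beside -0.17 over all genes. Fewer of the list were called higher without either control. Mirt1 (32 to 82 counts), Peg13 (6.52 and 5.28 against 9.77 and 11.5 CPM) and Mir22hg were the others that rose, and Firre (155 and 159.6 against 112 and 126 CPM) and Mir17hg fell. Firre, Mirt1 and Peg13 lost their call without either control (adjusted p = 0.0653 to 0.198), Firre also without irradiated 1 (0.116) and the other two without irradiated 2 (0.151 and 0.139). Trp53cor1, the lincRNA p21, had 10 and 4 counts in the groups and was not tested.

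Of 16 snoRNA host genes 6 fell and 0 rose, and all 16 had a negative fold change (median -0.59). Gas5, a host whose mRNA carries a 5′ tract typical of ribosomal protein genes, was at 124 and 106 CPM against 88.9 and 76.7 CPM (-0.48, SE 0.136, adjusted p = 0.0329, and 0.195 and 0.0640 without control 1 and 2 and 0.0770 without irradiated 2). Snhg1 was at 74.7 and 65.8 CPM against 66.6 and 43.3 CPM, with overlap, and did not pass (-0.35, SE 0.206, adjusted p = 0.262). Snhg18 fell from 189 to 38 counts, Epb41l4aos from 8.61 and 13.04 to 4.13 and 4.39 CPM, Snhg17 from 48.4 and 46.9 to 33.7 and 26.1 CPM and Zfas1 from 54.5 and 65.3 to 42.1 and 33.6 CPM. Without control 2, 2 hosts were called. Snhg17, Epb41l4aos and Zfas1 lost their call there (adjusted p = 0.0774, 0.0999 and 0.148), and Snhg17 also without control 1 (0.0764) and irradiated 2 (0.0554). The products of these hosts were out of reach: 1 of 113 listed snoRNA and scaRNA genes, 3 of 1076 microRNA genes and 0 of 13 small structured RNA had enough counts in these poly-A libraries. Among all lincRNA genes of the annotation 27 of 204 rose and 12 fell (median -0.01), close to the background. Of 228 antisense genes 12 rose and 7 fell, and since the strand setting of the counting is not given, their reads may include those of the partner gene.

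Mir22hg, the host of miR-22, was at 3.78 and 3.62 CPM against 13.4 and 18.3 CPM (2.10, SE 0.246, adjusted p = 7.51e-04). Mir17hg, the host of the miR-17 to miR-92a cluster, was at 24.9 and 27.1 CPM against 13.997 and 11.3 CPM (-1.04, SE 0.184, adjusted p = 0.00490). Both moved in both irradiated libraries, in opposite directions. The mature microRNA, which were not measured, are shown to name what these hosts carry; RefSeq sequences (GRCm38.p6) are written 5′ to 3′ with the seed, bases 2 to 8, in capitals.
miR-22-3p: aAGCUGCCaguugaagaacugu
miR-17-5p: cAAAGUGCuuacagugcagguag
miR-20a-5p: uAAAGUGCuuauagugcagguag
miR-18a-5p: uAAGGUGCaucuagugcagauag
miR-19a-3p: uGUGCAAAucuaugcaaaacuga
miR-19b-3p: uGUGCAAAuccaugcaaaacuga
miR-92a-3p: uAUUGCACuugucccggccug
miR-17-5p and miR-20a-5p share a seed, as do miR-19a-3p and miR-19b-3p. The seed of miR-22-3p is shared with none of the others shown.

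The day 4 effects of 33 lead genes were also set against those at day 7, where 14 differed by edgeR's test of the difference, beside 10.1% of all genes, and 8 of the 14 did so whichever library was left out. Aldh1l2, for example, had a log2 effect of -3.15 at day 4 and -0.78 at day 7 in the fit of all 8 libraries. Genes were chosen with earlier results of these data known, so the share of lead genes cannot be read against that of all genes.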

How the data were processed

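Poly-A selected RNA of mouse small intestinal organoids was sequenced with a directional kit, per the labels' protocols. Expected counts, in which ambiguous reads are shared between genes, and TPM were deposited as 2 tables, per the file headers. RSEM 1.3.3, STAR 2.7.3a, Trim Galore and FastQC appear in the submitters' processing notes, as do GRCm39 and mm10, with no role stated for either build. Neither annotation nor strandedness of counting is given in the sources used here. Of 55416 Ensembl IDs, 52083 had a symbol in GENCODE M21, and 32 of the genes tested had none.

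Expected counts were rounded, which changed 11.89% of values. Genes were filtered with filterByExpr (minimum count 10, minimum total 15), which kept at least 99.75% of each library's counts, scaled by TMM and tested in R 4.3.3 by the robust, two-sided quasi-likelihood test of edgeR 4.0.16. Only the 4 day 4 libraries were fitted, because their biological coefficient of variation was 0.135 in controls and 0.172 after irradiation, against 0.0463 and 0.0408 at day 7. P-values were adjusted over all 13826 genes and a gene was called at an adjusted p under 0.05. The difference of the irradiation effects between days was tested in a fit of all 8 libraries (14063 genes). The scripts were tested on simulated data.

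The members and lists were chosen with earlier results of these data known. Named genes are 34 lead genes, up to 5 called genes of smallest p and 2 others of highest level per list, the 10 rises and 10 falls of largest CPM difference, and genes said to be chosen after their values were seen, among them the called members of a direction where 5 or fewer were called. Alternatives were DESeq2 1.42.0 and its size factors, limma 3.58.1 (voom, and trend on the deposited TPM), no scaling, no filter or at least 5 CPM in 2 libraries, all 8 libraries in 1 fit, no mitochondrial genes, a replicate block, and each library left out; voom with weights by group was added after seeing the data. With a library left out, the lone sample is assumed to vary like the other group. Intervals and floors (95% confidence, 3 counts) cover counting error only. A few genes that the rule names are not reported here. RefSeq promoters and microRNA were matched by symbol.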

Additional observations from a re-analysis of the deposited data

Results flagged for a closer look

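The 34 lead genes were also compared between the days. For 14 of the 33 tested, the irradiation effect at day 7 differed from that at day 4 (edgeR interaction, adjusted p under 0.05). Over all 14063 genes the share was 10.1%. In 13 of the 14 the effect was smaller in size at day 7. Genes were chosen with earlier results of these data known, so these counts support no contrast between lead genes and other genes. Values are the log2 effect at day 7 less that at day 4. For genes lower at day 4 the differences were 2.37 for Aldh1l2 (effect -3.15 at day 4 and -0.78 at day 7), 1.53 for Eif4ebp1, 1.31 for Mthfd2 (-1.28 and 0.04), 1.27 for Shmt2, 1.16 for Asns (-1.17 and -0.00), 1.03 for H2afx, 1.01 for Phgdh, 0.70 for Rplp0 (-0.69 and 0.02) and 0.50 for H1f0. For genes higher at day 4 they were -2.51 for Slc15a1 (5.12 and 2.61), -1.94 for Slc6a19 (3.08 and 1.14), -0.59 for Abcb1a (0.67 and 0.08), -1.38 for Neat1 (1.31 and -0.08) and -2.41 for Malat1 (0.82 and -1.59). Malat1 is the exception in size, with a larger effect at day 7, of opposite sign. Other genes also had opposite signs on the 2 days. These were Eif4ebp1 (-1.05 and 0.48), H2afx (-0.68 and 0.35), Shmt2 (-0.96 and 0.31) and Phgdh (-0.86 and 0.15). Mthfd2, Rplp0 and Neat1 had small day 7 effects of opposite sign. Of the 14, 8 were called whichever of the 8 libraries was left out (Aldh1l2, Asns, Eif4ebp1, Malat1, Mthfd2, Neat1, Shmt2 and Slc6a19). Abcb1a, H1f0, Phgdh and Rplp0 lost their call without control 2 of day 4 and without any 1 of the day 7 libraries, Slc15a1 without any 1 of the day 7 libraries, and H2afx without either day 7 control or irradiated 2 of day 7. The pooled spread of this fit is set in part by the closer day 7 replicates, and the counts of such calls ran from 244 to 2718 when 1 library was left out, lowest without a day 7 library. Of the hypoxia genes Bnip3, Egln3, Car9, Vegfa, Ankrd37 and Ldha, none passed this test (adjusted p = 0.599 to 0.904).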

How the results depend on the processing

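Spread between libraries limits the calls at day 4: with 2 libraries a group, leaving out 1 moved the calls from 3228 to between 1284 and 3198, the rises (1878) to between 888 and 1816 and the falls (1350) to between 396 and 1382. Calls of the difference between days (1422) ran from 244 to 2718. No gene called in both a fit and an alternative changed direction. Of 198 genes named and called, 95 kept their call whichever library was left out. All 8 libraries in 1 fit called 5130 genes with 2322 falls. With limma on deposited TPM, rises numbered 1004 at a pseudocount of 1 and 990 at 0.1, and the overall median shifted to -0.18 and -0.20. Without a filter 2456 genes differed between days. Whether the replicate numbers pair the samples is not known. The deviations of replicate 1 from its group mean correlated at 0.08 across genes between control and irradiated, which cannot decide it. The fit with the replicate block called 3541. Hif1a reversed to -0.013 on both TPM scales and Rps4l ranged from -0.23 without control 2 to 2.01 without control 1. The other alternatives kept the count of calls within 1.5 times. Depth limits genes with few counts, such as Rps4l, H19 and the clustered histones.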

Other observations

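Other lists were counted as well. Of 30 fatty acid oxidation enzymes 14 rose and 0 fell (median 0.41), among them Crat, a carnitine acyltransferase (15.9 and 18.8 against 45.6 and 63.1 CPM). The fatty acid carrier Slc27a4 rose from 32.4 and 31.1 to 73.8 and 103 CPM, and the choline carrier Slc44a1 fell from 207 and 231 to 121 and 124 CPM. Of 34 lysosomal genes 18 rose and 2 fell (median 0.54). The protease Ctsd rose from 109 and 108 to 347 and 286 CPM, the acid lipase Lipa from 11.5 and 8.79 to 48.4 and 70.5 CPM, Ctsa from 107 and 89.7 to 203 and 227 CPM and the membrane protein Lamp1 from 366 and 333 to 695 and 704 CPM. Glb1 (57.7 and 66.1 against 43.2 and 47.2 CPM) and Npc2 (218 and 224 against 143 and 152 CPM) were the lysosomal genes that fell, with calls lost without control 2 (adjusted p = 0.276 and 0.0675) and, for Glb1, without control 1 or irradiated 1 (0.0781 and 0.103). Without control 1, 8 oxidation enzymes and 12 lysosomal genes rose, and without control 2, 10 and 11.

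Proteasome subunits moved by small and even amounts, with 9 of 31 higher (median 0.26) and all 31 fold changes positive. Psmd4 was at 63.3 and 56.6 CPM against 101 and 92.0 CPM (adjusted p = 0.0698 without control 2). With library totals 1 was higher, on the log2(TPM + 1) scale 0, and without control 2 0, with medians of 0.10, 0.08 and 0.24. Of 74 nuclear subunits of oxidative phosphorylation 3 rose (Ndufa1, Ndufa4 and Cox6a1, a share below the 13.6% of all genes) and 0 fell (median 0.12). With library totals 0 rose and 2 fell (median -0.04, beside -0.17 over all genes). The calls of Ndufa1, Ndufa4 and Cox6a1 were lost without control 1, control 2 or irradiated 1, at log2 fold changes of 0.328 to 0.676. The mitochondrially encoded genes summed to 200800 and 149400 CPM in the controls, 197900 CPM in irradiated 1 and 318900 CPM in irradiated 2. Core splicing factors had 5 of 39 lower, near the 9.76% of all genes, and 0 to 7 when 1 library was left out; 37 of 39 fold changes were negative. In the mixed list of nucleoside, folate and riboflavin carriers, Slc46a3 rose from 1.21 and 1.21 to 7.25 and 11.7 CPM. Slc28a1 rose from 0.161 and 0.0574 to 1.21 and 2.35 CPM. Slc28a1 lost its call without control 2 or irradiated 2, at log2 fold changes of 3.365 and 3.438.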
